A study of Mus musculus with 18 samples.

Results

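The 40 genes described here are antiviral interferon-stimulated genes, together with the STAT and IRF transcription factors that switch them on. They were taken from a written list, which was drawn up with earlier results of these data known. Of the 40, 38 had a probe set that the array annotation assigns to 1 gene symbol, out of 18193 genes measured in this way. A gene with several such probe sets was represented by the brightest of them on average. Sets with the suffix _x_at, which marks a risk of cross-hybridisation, were avoided. Sets with the suffix _s_at were not avoided, and such sets stood for Ifi35 and Tor3a. Isg15, which encodes a ubiquitin-like modifier, was covered only by a probe set shared with a predicted gene and was given no value. Ifi44 had no annotated probe set in the table used here.

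RNA came from pieces of subcutaneous tumours of MC38, a mouse colon carcinoma line. The tumours grew in C57BL/6-Ly5.1 mice that were 6 to 12 weeks old when inoculated with the tumour cells in Matrigel. The MEKi/CD40 group (4 tumours) received the MEK inhibitor GDC-0623 daily at 30 mg/kg together with agonist anti-CD40, a mouse IgG1. The MEKi group (5 tumours) received the inhibitor with control IgG, and the anti-CD40 group (4 tumours) received the antibody with the inhibitor's vehicle, methylcellulose/tween (MCT). The control group (5 tumours) received vehicle and control IgG. Either antibody was injected intraperitoneally on treatment days 3, 5 and 7 and once more on the day before sampling, and tumours of all groups were collected at day 22. No animal contributed more than 1 array. A tumour piece holds cancer, stromal and immune cells, so fewer cells of a type and less RNA per cell cannot be told apart.

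Interferons are secreted when cells sense foreign or displaced nucleic acids (type I, interferon-alpha and interferon-beta) or when T and NK cells are activated (type II, interferon-gamma). Type I interferon signals through JAK kinases to a complex that holds STAT2 and IRF9 and binds the interferon-stimulated response element (ISRE) in the promoters of its target genes. Genes induced by interferon-gamma often carry another element, the gamma-activated site (GAS). The products of the induced genes sense viral RNA, degrade it, block translation or modify proteins, and some feed back on the pathway. In tumours the same genes serve as a readout of interferon exposure of cancer and immune cells alike.

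The DNA that the interferon-activated factors recognise was read in the RefSeq promoter windows (build GRCm38.p6), which run from 250 bases before to 50 bases after the annotated start. A window was given for 30 of the 40 genes. Some genes had several windows, for different annotated starts, and a match in any of them was counted. The ISRE core, written GAAANNGAAA and searched on both strands, was found in 11 of these 30 genes (36.7%), compared with 3.99% of all 27025 genes with a window. The GAS, TTCNNNGAA, which reads the same on both strands, was found in 8 of 30 (26.7%), compared with 9.55% of all genes. In Bst2 the GAS and ISRE letters overlapped. The stretches below are examples from the windows with a match before the start, taken from several roles for the ISRE, with the GAS of Isg20, a gene that changed, and of Irf1. They read 5′ to 3′ on the gene's strand, the capitals mark the matched letters, and a core on the opposite strand appears as its reverse complement.
Ifit1 (chr19:34640784-34640833, + strand, ISRE): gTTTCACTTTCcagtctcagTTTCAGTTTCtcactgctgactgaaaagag
Oas3 (chr5:120777705-120777754, - strand, ISRE): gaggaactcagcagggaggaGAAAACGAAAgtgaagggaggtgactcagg
Stat2 (chr10:128270256-128270305, + strand, ISRE): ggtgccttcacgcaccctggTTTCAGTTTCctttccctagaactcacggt
Bst2 (chr8:71537567-71537616, - strand, ISRE): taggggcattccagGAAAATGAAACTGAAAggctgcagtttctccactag
Isg15 (chr4:156200855-156200904, - strand, ISRE, 3 overlapping cores): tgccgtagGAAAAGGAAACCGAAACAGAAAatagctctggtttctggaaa
Isg20 (chr7:78913331-78913379, + strand, GAS): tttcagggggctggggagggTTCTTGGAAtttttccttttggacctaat
Irf1 (chr11:53769904-53769952, + strand, GAS): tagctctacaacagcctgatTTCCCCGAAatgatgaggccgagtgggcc

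**Figure D1:**
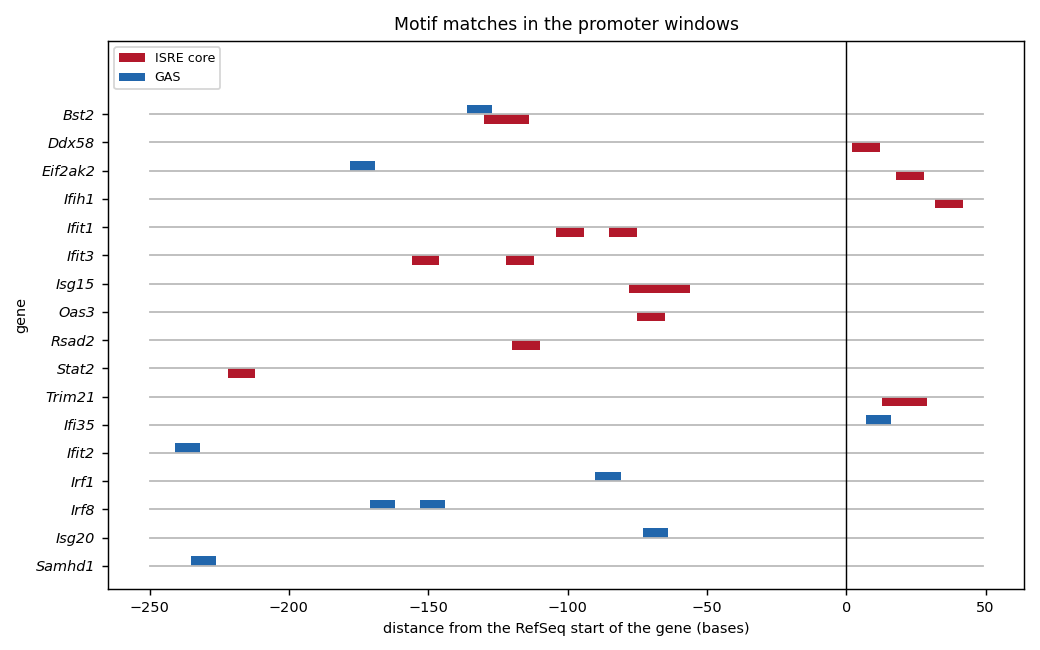
Position of each match (horizontal axis, bases from the RefSeq start, with the start at 0) in the 17 genes (vertical axis) whose window held an ISRE core (red) or a GAS (blue). The ISRE cores of Ifit1, Isg15 and Oas3 lie between 104 and 57 bases before the start, while those of Ddx58, Eif2ak2, Ifih1 and Trim21 lie after it.

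The values are deposited log2 signals, 1 per probe set and array. Values below 3 were read as background, and none of the 38 genes fell below 3 on any array. The arrays were alike in quality, with upper quartiles of 8.14 to 8.25 and an Actb 3′ minus 5′ difference of 0.24 to 0.43 on the log2 scale. The leukocyte gene Ptprc (CD45) read 11.21 to 12.71. Of 5 epithelial markers, Krt8, Krt18, Krt19 and Epcam were below 3 on every array and Cdh1 read 4.35 to 6.89, so the tumours showed little of the epithelial programme of a colon carcinoma. Animal numbers in the labels fell into a low and a high series whose meaning the labels do not give. All 4 MEKi/CD40 and all 4 anti-CD40 tumours belonged to the low series, against 2 of 5 MEKi and 2 of 5 control tumours.

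The share of antiviral genes raised by MEK inhibition and anti-CD40 together lay between those of all probe sets and of brighter genes. With MEKi/CD40, Zbp1, Isg20, Ifi47 and Lgals3bp rose against control, by 1.35-fold to 1.88-fold, and no member fell. These are 4 of 38 members (10.5%), against 14.9% of all 45037 probe sets tested changed in either direction and 5.5% higher (limma, adjusted p under 0.05). Among the 7144 genes with a mean value of at least 8, the brightness range of most members, 903 were higher. In either direction 36.7% of them changed. The difference was above 0 for 32 of the 38 members, with a median of 0.26 on the log2 scale, beside a median of 0.00 over all probe sets and -0.07 over the brighter genes.

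Zbp1, a sensor of Z-form nucleic acids that can trigger necroptosis, showed the clearest shift among the sensors. Given here and below in the order of tumour number, it read 11.92, 11.59, 12.09 and 11.99 with MEKi/CD40 and 11.61, 11.73, 11.53, 11.39 and 11.63 with MEKi. It read 12.06, 11.51, 11.64 and 11.68 with anti-CD40 and 10.51, 11.44, 10.88, 10.92 and 11.19 in control. All MEKi/CD40 and anti-CD40 tumours lay above all controls, while the lowest MEKi tumour lay just below the highest control. Zbp1 averaged 11.90 ± 0.22 with MEKi/CD40 and 10.99 ± 0.35 in control (SD, n = 4 and 5), a rise of 0.91 ± 0.20 (SE) on the log2 scale (1.88-fold, adjusted p = 0.0210). A further Zbp1 probe set also passed, with a difference of 1.12 (adjusted p = 0.0196).

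Isg20, an exonuclease that degrades viral RNA, was raised in both groups given the inhibitor. It read 10.24, 10.18, 9.51 and 10.04 with MEKi/CD40 and 10.37, 10.37, 10.35, 10.10 and 10.01 with MEKi. It read 9.59, 9.14, 8.78 and 9.33 with anti-CD40 and 8.96, 9.53, 9.38, 9.08 and 8.97 in control. The MEKi tumours stood clear of the anti-CD40 and control tumours, and only MEKi/CD40 3 overlapped them. The rise was 0.81 ± 0.19 with MEKi/CD40 (1.75-fold, adjusted p = 0.0292) and 1.06 ± 0.14 with MEKi (2.08-fold, adjusted p = 0.00644).

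Ifi47, an interferon-inducible GTPase of the IRG family, and Lgals3bp, a secreted glycoprotein that binds galectin-3, made up the rest. Ifi47 read 12.87, 12.61, 13.26 and 12.93 with MEKi/CD40 and 12.62, 12.62, 12.12, 12.70 and 12.53 with MEKi. It read 12.58, 12.64, 12.67 and 12.69 with anti-CD40 and 12.52, 12.58, 12.27, 12.27 and 12.28 in control. The lowest MEKi/CD40 tumour exceeded the highest control by little, and the rise was 0.53 ± 0.14 (1.45-fold, adjusted p = 0.0400).
Lgals3bp read 13.43, 13.39, 13.43 and 13.37 with MEKi/CD40 and 13.36, 13.32, 13.19, 13.15 and 13.43 with MEKi. It read 13.48, 13.18, 13.07 and 13.31 with anti-CD40 and 12.75, 13.23, 12.93, 12.88 and 13.07 in control. The MEKi/CD40 tumours were nearly identical and above every control, a rise of 0.43 ± 0.09 (1.35-fold, adjusted p = 0.0198).

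Oas2, which makes the 2-5A messenger that activates RNase L, had the largest difference of all members but did not pass. It read 9.52, 10.02, 9.78 and 9.41 with MEKi/CD40 and 9.52, 9.44, 9.61, 8.90 and 9.16 with MEKi. It read 9.15, 8.49, 8.08 and 8.82 with anti-CD40 and 7.44, 9.28, 8.64, 8.03 and 8.59 in control. The controls alone spanned a wide range, and the difference was 1.29 ± 0.36 with MEKi/CD40 (adjusted p = 0.0557) and 0.93 ± 0.33 with MEKi (adjusted p = 0.137), both against control. With Zbp1, Ifi47 and Lgals3bp it made up the 4 members whose MEKi/CD40 tumours all lay above all controls, against 6.53% of all probe sets.

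Which of these genes passed the test depended on single tumours and on how the number series was handled. When the model held the number series as a block, or used the low series alone (4 MEKi/CD40 and 2 control tumours), 0 of 38 members were called against control with MEKi/CD40. Both settings take the difference from control 1 and control 2 alone. These were the lowest and highest controls in mean member level, so the lost calls cannot be assigned to the number series. The differences with the block were 0.92 for Zbp1 (adjusted p = 0.102), 0.75 for Isg20 (0.161), 0.42 for Lgals3bp (0.114) and 0.37 for Ifi47 (0.267). Without the 3 arrays with the most adipocyte marker signal (MEKi/CD40 2, MEKi/CD40 4 and anti-CD40 3), again 0 were called, with 2 MEKi/CD40 tumours remaining. The differences were then 1.02 for Zbp1, 0.69 for Isg20, 0.68 for Ifi47 and 0.46 for Lgals3bp (adjusted p = 0.0841, 0.223, 0.0591 and 0.119). Leaving out control 2 gave 8 calls, leaving out control 3, control 4 or MEKi/CD40 1 gave 0, leaving out control 1, control 5 or MEKi/CD40 2 gave 2 each, leaving out MEKi/CD40 4 gave 1, and leaving out MEKi/CD40 3 gave 3.

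**Figure D2:**
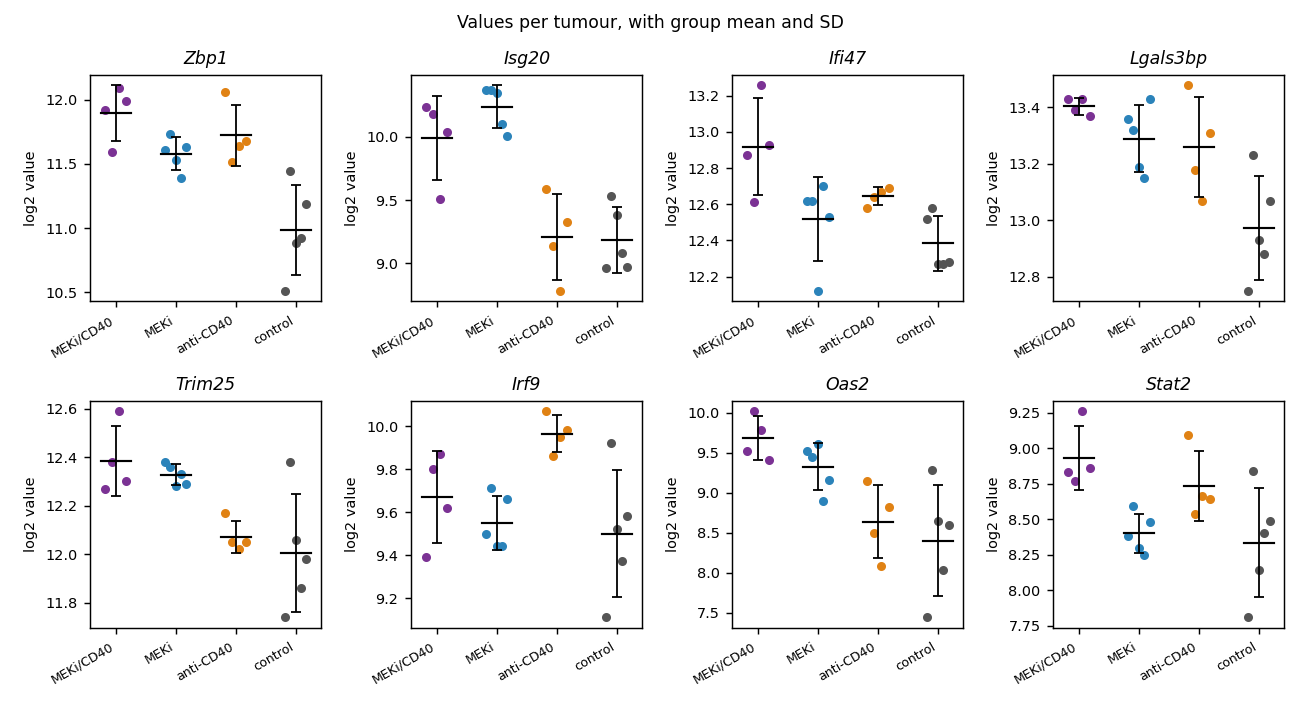
Log2 values (vertical axes) of the 6 members called in any comparison and of Oas2 and Stat2, with 1 column of points per group (horizontal axes). Each point is a tumour, the dash is the group mean and the bar its SD. For Isg20 the MEKi tumours (10.01 to 10.37) sit above all anti-CD40 and control tumours.

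By role, 0 of 5 transcription factors passed with MEKi/CD40. Stat2, a subunit of the type I interferon transcription complex, read 8.83, 8.77, 9.26 and 8.86 with MEKi/CD40 and 8.38, 8.59, 8.30, 8.25 and 8.48 with MEKi. It read 9.09, 8.54, 8.66 and 8.64 with anti-CD40 and 7.81, 8.84, 8.14, 8.40 and 8.49 in control. Its difference from control was 0.59 ± 0.21 (adjusted p = 0.122) with MEKi/CD40. Irf1, an early interferon-gamma target, Irf7, the amplifier of type I interferon genes, and Irf9, the DNA-binding partner of Stat2, differed by 0.25, 0.35 and 0.17. Irf8, a factor of macrophages and dendritic cells, read 8.80, 8.35, 11.05 and 9.51 with MEKi/CD40, and 9.36, 9.82, 9.17, 9.19 and 9.85 in control. MEKi/CD40 3 stood far above its group in Irf8, and the difference between the means was -0.05 ± 0.53.

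Among the 6 sensors and their ligases only Zbp1 passed with MEKi/CD40. The RNA helicases Ifih1 (MDA5), Ddx58 (RIG-I) and Dhx58 (LGP2) differed from control by 0.26, 0.17 and -0.02. Trim25, the ubiquitin ligase that activates RIG-I, and Trim21, an antibody-binding ubiquitin ligase, differed by 0.38 and 0.37 (adjusted p = 0.117 and 0.142). Of the 8 members in the 2-5A, PKR and IFIT class, 0 passed and 7 lay above 0. Ifit1, which binds viral RNA ends, and Eif2ak2, the kinase PKR that stops translation, both differed by 0.38. Ifit2, an IFIT family protein, differed by -0.37, and Ifit3, which partners Ifit1, by 0.02.

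Of the other 7 effectors only Isg20 passed. Samhd1, which hydrolyses deoxynucleotides, differed by 0.52 ± 0.25 (adjusted p = 0.270), and MEKi/CD40 3 read 11.65 for it against 10.63 to 10.81 in the remaining MEKi/CD40 tumours. Rsad2 (viperin) differed by 0.18, Cmpk2, a nucleotide kinase, by -0.34 and Bst2 (tetherin) by -0.05. Mx1 and Mx2, whose genes are disrupted in most laboratory mouse strains, C57BL/6 among them, differed by 0.19 and 0.09. In the ISG15 and ADP-ribosylation class 0 of 5 passed, with differences of 0.03 for Usp18, which removes ISG15 and dampens the receptor, and 0.65 ± 0.24 for Parp14, an ADP-ribosyltransferase (adjusted p = 0.127). Of the remaining members, Rtp4, Xaf1, Sp100, Ifi35 and Tor3a differed by 0.40, 0.26, 0.16, 0.04 and -0.001.

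**Figure D3:**
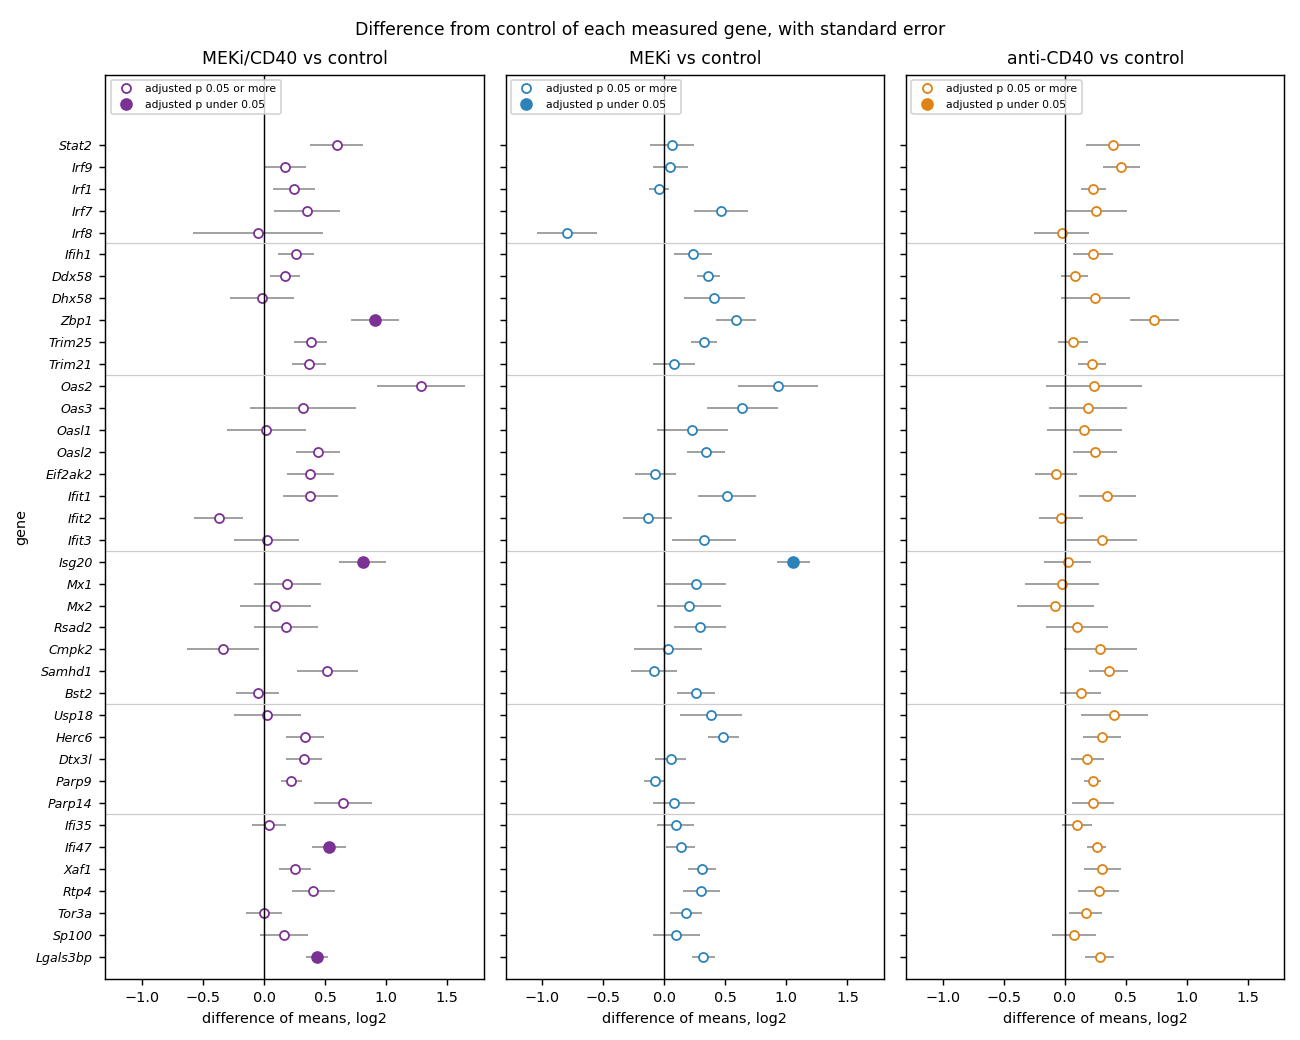
Difference of group means from control (horizontal axes, log2) for the 38 measured members (vertical axis, grouped by role), with standard errors, for MEKi/CD40, MEKi and anti-CD40. Filled points have an adjusted p under 0.05: Zbp1, Isg20, Ifi47 and Lgals3bp with MEKi/CD40, and Isg20 with MEKi. The 3 panels share the same 5 control tumours.

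MEK inhibition alone raised Isg20 and no other member against control, 1 of 38 (2.63%). Over all probe sets 7.83% changed in either direction and 3.99% were higher. Of the 7144 brighter genes 20.7% changed in either direction and 805 were higher. The median difference was 0.25, with 32 of 38 above 0, beside -0.01 over the brighter genes. Isg20 was also called in a model blocked on number series (1.06, adjusted p = 0.0118) and without any array in turn (largest adjusted p = 0.0208). Within the low series alone (1.12, adjusted p = 0.427) and the high series alone (1.01, adjusted p = 0.213) it was not called. Without control 2, 9 members were called, among them Ddx58, Herc6, Zbp1 and Trim25.

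Ddx58 and Herc6, the ligase that attaches ISG15 in the mouse, came nearest after Isg20. Ddx58 read 11.15, 11.13, 10.84 and 11.27 with MEKi/CD40 and 11.29, 11.36, 11.20, 11.37 and 11.21 with MEKi. It read 11.17, 11.01, 10.84 and 11.01 with anti-CD40 and 10.75, 11.21, 11.01, 10.74 and 10.92 in control. Only control 2 reached the range of the MEKi tumours, and the difference with MEKi was 0.36 ± 0.09 (adjusted p = 0.0520).
Herc6 read 10.34, 10.45, 10.83 and 10.52 with MEKi/CD40 and 10.50, 10.86, 10.55, 10.70 and 10.79 with MEKi. It read 10.79, 10.38, 10.33 and 10.50 with anti-CD40 and 9.92, 10.59, 10.25, 10.03 and 10.19 in control. Again control 2 overlapped, and the difference with MEKi was 0.48 ± 0.13 (adjusted p = 0.0599). Zbp1 differed by 0.59 ± 0.16 (adjusted p = 0.0644) and Lgals3bp by 0.32 (adjusted p = 0.0840). Irf8 was the member furthest below control with MEKi, at -0.80 ± 0.25 (adjusted p = 0.0923). It read 8.94, 8.60, 7.92, 9.01 and 8.94 in MEKi tumours, all below the lowest control.

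With anti-CD40 alone, 0 of 38 members were called against control by limma, as were 0% of all probe sets (0 of 45037). An unadjusted p under 0.05 was found for 5 members, beside 2423 of the 45037 probe sets and 742 of the 7144 brighter genes. The median difference was 0.23, with 33 of 38 above 0, beside -0.01 over the brighter genes. Zbp1 differed most, by 0.73 ± 0.20 (adjusted p = 0.675). Irf9 read 9.39, 9.80, 9.87 and 9.62 with MEKi/CD40 and 9.50, 9.71, 9.44, 9.44 and 9.66 with MEKi. It read 10.07, 9.86, 9.95 and 9.98 with anti-CD40 and 9.11, 9.92, 9.52, 9.37 and 9.58 in control. Only control 2 reached the range of the anti-CD40 tumours, and the difference between the means was 0.47 ± 0.15 (adjusted p = 0.764). Parp9, which acts with the ligase Dtx3l, read 12.00, 11.89, 12.19 and 11.95 with MEKi/CD40 and 11.71, 11.83, 11.47, 11.71 and 11.80 with MEKi. It read 11.98, 12.01, 11.99 and 12.08 with anti-CD40 and 11.78, 12.01, 11.76, 11.70 and 11.67 in control. Its difference with anti-CD40 was 0.23 ± 0.07 (adjusted p = 0.736), and that of Ifi47 was 0.26 ± 0.08 (adjusted p = 0.736). The differences against control for the 3 drug groups rest on the same 5 control tumours.

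The control tumours differed widely from each other in these genes. Control 2 had the highest value of the 5 controls in 36 of 38 members, and control 1 had the lowest in 24. The median SD of the members was 0.33 in control, against 0.13 over the 7144 brighter genes. Other immune gene lists spread as well among the controls, with an SD of the list mean of 0.33 for the interferon-gamma GTPases and 0.75 for T cell markers, beside 0.32 for the members. The corresponding median SDs of the members and of the brighter genes were 0.22 and 0.17 with MEKi/CD40, 0.18 and 0.12 with MEKi, and 0.18 and 0.11 with anti-CD40. The mean level of the 38 members was 10.56, 10.65, 10.99 and 10.69 with MEKi/CD40 and 10.64, 10.88, 10.44, 10.69 and 10.73 with MEKi. It was 10.79, 10.64, 10.52 and 10.66 with anti-CD40, against 10.12, 10.96, 10.49, 10.31 and 10.35 in control. Apart from control 2, every control lay below every MEKi/CD40 tumour and below every anti-CD40 tumour.

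Within each drug group a tumour also led across most members. MEKi/CD40 3 was the highest of its group in 31 of 38, MEKi 2 in 26 and anti-CD40 1 in 25. MEKi 3 was the lowest of its group in 25, and MEKi/CD40 1 and anti-CD40 3 in 20 each. Control 1 and control 2 both belong to the low number series, so the low series holds both ends of the control range. The 3 high-series controls had mean member levels between those of control 1 and control 2.

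**Figure D4:**
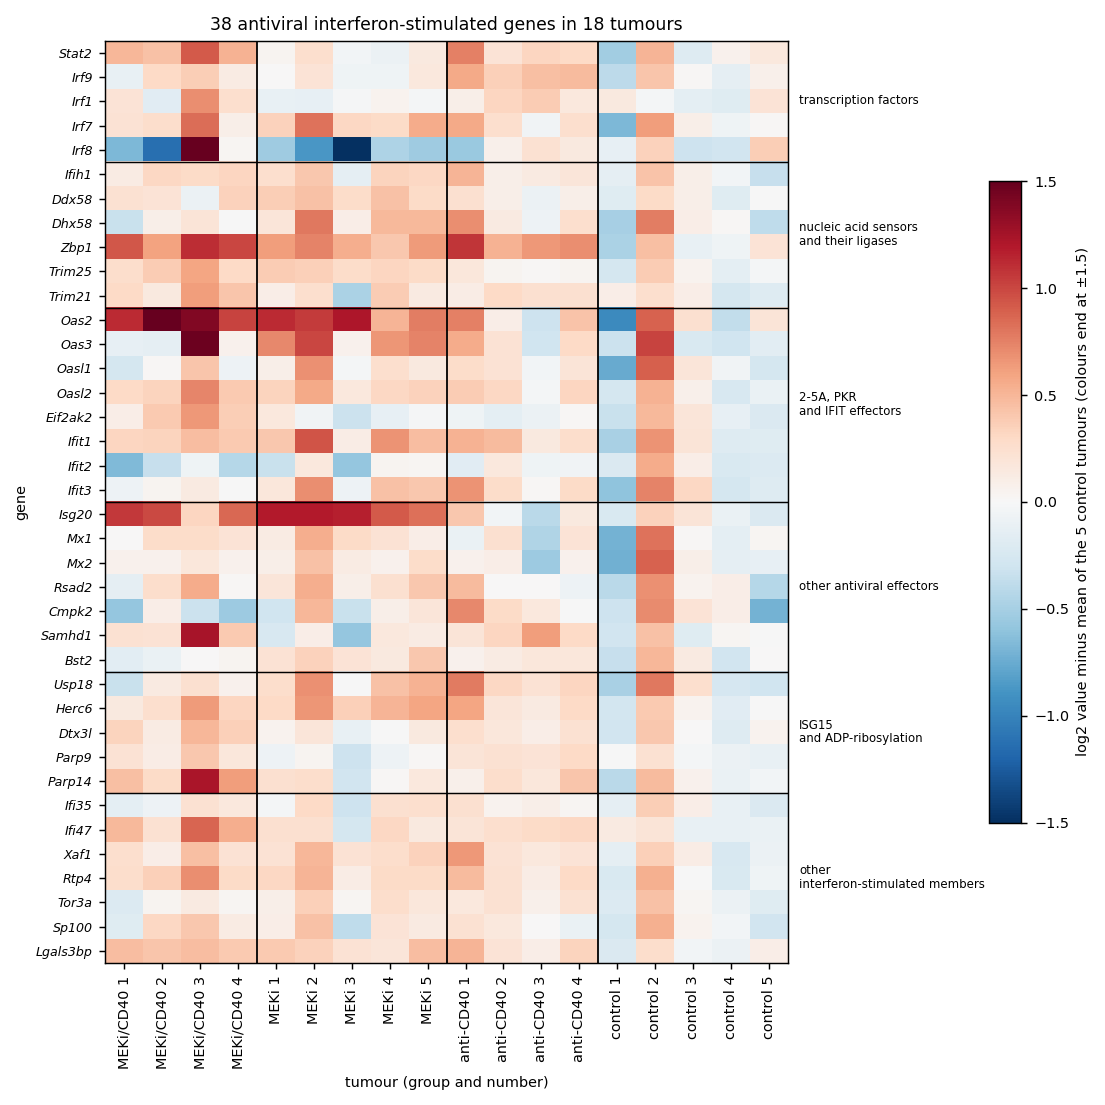
Log2 value of each member (rows, grouped by role) in each tumour (columns) minus the mean of the 5 control tumours, with red above and blue below and the colour scale ending at ±1.5. Control 2 is red in nearly every row and control 1 mostly blue. Zbp1, Oas2 and Isg20 are red in all tumours given the inhibitor, and MEKi/CD40 3 stands out in Irf8, Oas3, Samhd1 and Parp14.

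Does anti-CD40 change the antiviral genes of tumours already under MEK inhibition? For MEKi/CD40 against MEKi, 0 of 38 members were called by limma, against 2.5% of all probe sets and 5.18% of the brighter genes. An unadjusted p under 0.05 was found for 9 members, beside 7564 of the 45037 probe sets and 2559 of the 7144 brighter genes. The median difference was -0.01, with 19 members above and 19 below 0. Bst2, which tethers budding virions to the cell surface, read 12.89, 12.95, 13.06 and 13.09 with MEKi/CD40 and 13.27, 13.39, 13.25, 13.20 and 13.45 with MEKi. It read 13.11, 13.17, 13.22 and 13.22 with anti-CD40 and 12.71, 13.55, 13.18, 12.76 and 13.05 in control. Every MEKi/CD40 tumour was below every MEKi tumour, by -0.31 ± 0.07 on average (adjusted p = 0.0563). Stat2 lay on the other side, with all MEKi/CD40 tumours above all MEKi tumours (0.53 ± 0.12, adjusted p = 0.0646). Parp9 likewise differed by 0.30 ± 0.09 (adjusted p = 0.131). Against MEKi, 4 members lay above without overlap, beside 3.14% of all probe sets, and 1 below, where the share of all probe sets was not computed.

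Eif2ak2 read 9.62, 9.91, 10.17 and 9.89 with MEKi/CD40 and 9.68, 9.46, 9.19, 9.39 and 9.50 with MEKi. It read 9.45, 9.37, 9.43 and 9.54 with anti-CD40 and 9.18, 10.01, 9.70, 9.40 and 9.30 in control. The difference was 0.45 ± 0.13 against MEKi (adjusted p = 0.124) and 0.45 ± 0.11 against anti-CD40 (adjusted p = 0.0559). The 3 probe sets of Eif2ak2 disagreed. Against anti-CD40 the dimmer sets gave 0.23 (adjusted p = 0.342) and -0.02 (adjusted p = 1).

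When the inhibitor was added to anti-CD40 (MEKi/CD40 against anti-CD40), 0 of 38 members were called by limma, against 11.6% of all probe sets and 28.6% of the brighter genes. An unadjusted p under 0.05 was found for 8 members, beside 10512 of the 45037 probe sets and 3684 of the 7144 brighter genes. The median difference was 0.09, with 25 above 0. Trim25 read 12.27, 12.38, 12.59 and 12.30 with MEKi/CD40 and 12.38, 12.36, 12.28, 12.33 and 12.29 with MEKi. It read 12.17, 12.05, 12.02 and 12.05 with anti-CD40 and 11.74, 12.38, 12.06, 11.86 and 11.98 in control. Tumours given the inhibitor all read above those given anti-CD40 alone. In MEKi/CD40 against anti-CD40, 3 members lay above without overlap, beside 7.6% of all probe sets, and 1 below, where the share was not computed. The difference of MEKi/CD40 from anti-CD40 was 0.31 ± 0.08 for Trim25 (adjusted p = 0.0510), 1.05 ± 0.26 for Oas2 (adjusted p = 0.0511) and 0.78 ± 0.23 for Isg20 (adjusted p = 0.0878). Bst2 differed by -0.18 ± 0.05 (adjusted p = 0.0793).

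Between the single agents (MEKi against anti-CD40), 3 of 38 members were called (7.89%), against 5.09% of all probe sets and 13.4% of the brighter genes. Trim25 rose by 0.26 ± 0.04 (1.19-fold, adjusted p = 0.0193) and Isg20 by 1.03 ± 0.17 (2.04-fold, adjusted p = 0.0240) in MEKi tumours. Irf9 was lower in MEKi tumours, at 9.55 ± 0.13, than with anti-CD40, at 9.97 ± 0.09 (SD, n = 5 and 4), a difference of -0.42 ± 0.07 (adjusted p = 0.0274). In all 3 genes the groups did not overlap. Parp9 and Irf1 lay below and Ddx58 above without overlap, at -0.31 (adjusted p = 0.0552), -0.28 (adjusted p = 0.0661) and 0.28 (adjusted p = 0.0683). Samhd1 also lay below without overlap, at most 10.58 with MEKi and at least 10.61 with anti-CD40. In this comparison 3 members lay above without overlap, beside 5.26% of all probe sets. A further 4 lay below, a count that cannot be judged because the share of all probe sets below was not computed. Trim25's other probe sets disagreed, the brighter of the pair giving 0.29 (adjusted p = 0.0288) and the dimmer -0.02 (adjusted p = 1).
In a model blocked on number series, in the low series alone (2 MEKi and 4 anti-CD40 tumours) and without the 3 arrays highest in adipocyte markers, 0 of these calls were made. The differences were 1.16 for Isg20, 0.30 for Trim25 and -0.36 for Irf9 with the block or in the low series, and 0.89, 0.24 and -0.42 without those arrays. They were also lost without anti-CD40 2 or without anti-CD40 3, and 1 was made without anti-CD40 4 or without MEKi 1, Trim25 in both.

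The effect of the combination differed from the sum of the single effects for 0 of 38 members (limma interaction term, smallest adjusted p = 0.253), against 2.64% of all probe sets and 4.41% of the brighter genes. An unadjusted p under 0.05 was found for 5 members, beside 6634 of the 45037 probe sets and 1964 of the 7144 brighter genes. The interaction term was below 0 for 27 of 38 members, with a median of -0.19, beside -0.07 over the brighter genes. Usp18 read 10.66, 11.13, 11.23 and 11.06 with MEKi/CD40 and 11.26, 11.68, 10.99, 11.43 and 11.51 with MEKi. It read 11.77, 11.30, 11.21 and 11.32 with anti-CD40 and 10.51, 11.78, 11.24, 10.74 and 10.69 in control. It averaged 11.02 ± 0.25 with MEKi/CD40, 11.37 ± 0.26 with MEKi, 11.40 ± 0.25 with anti-CD40 and 10.99 ± 0.52 in control (SD). Its interaction term was -0.76 ± 0.33 (adjusted p = 0.283). The terms of Eif2ak2, Bst2 and Herc6 were 0.52 (adjusted p = 0.253), -0.44 (0.259) and -0.45 (0.292). Without control 2 the term of Bst2 was called (-0.57, adjusted p = 0.0450).

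The interferons themselves were mostly at background. Ifnb1, the interferon-beta gene, read 2.17 to 2.67 over the 18 arrays, and the 7 interferon-alpha genes measured read 2.16 to 2.27, all below 3. Of 5 markers of plasmacytoid dendritic cells, which are specialised producers of type I interferon, Siglech read 2.16 to 2.27 and Klk1 2.16 to 2.43. Ccr9 exceeded 3 on 1 array, while Spib read 4.85 to 8.17 and Cox6a2 5.97 to 8.98. Ifng read 5.53, 4.36, 7.71 and 6.03 with MEKi/CD40 and 4.34, 4.27, 4.27, 4.48 and 5.42 with MEKi. It read 4.86, 5.55, 6.75 and 6.71 with anti-CD40 and 3.31, 5.49, 4.18, 4.23 and 5.39 in control. MEKi/CD40 3 was the highest tumour both in Ifng and in the mean of the 38 members, but anti-CD40 3 had the highest Ifng and the lowest member mean of its group, and anti-CD40 1 the lowest Ifng and the highest member mean. The differences from control were 1.39 ± 0.75 with MEKi/CD40 (adjusted p = 0.337), 0.04 ± 0.45 with MEKi (adjusted p = 1) and 1.45 ± 0.60 with anti-CD40 (adjusted p = 0.901).

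None of the 6 interferon receptor genes passed against control. With MEKi/CD40, Ifnar2, the signalling chain of the type I receptor, differed by 0.40 ± 0.11 (adjusted p = 0.0516), Ifnar1 by 0.25 (0.0854), Ifngr2 by 0.53 (0.349) and Ifngr1 by 0.26 (0.262). Downstream, 6 of 15 genes of JAK, STAT and IRF signalling and its inhibitors passed with MEKi/CD40 (40%), a share near the 36.7% of the brighter genes. The kinases Jak1 (0.36) and Jak2 (0.53), the factors Stat3 (0.70) and Irf2 (0.34), and the phosphatase Ptpn11 (0.33) rose, while Ptpn2, a phosphatase that turns off JAK and STAT proteins, fell by 0.39 (adjusted p = 0.00228). With MEKi 4 of 15 passed (26.7%, beside 20.7% of the brighter genes), with Jak1 (0.27) and Jak2 (0.35) higher and Irf5 (-0.67) and Ptpn1 (-0.37) lower. Socs1, an inhibitor of JAK kinases, differed from control by 0.42 (MEKi/CD40), 0.14 (MEKi) and 0.32 (anti-CD40), with no call.

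Of 8 interferon-gamma-induced GTPases, 5 rose with MEKi/CD40 against control (62.5%). Over all probe sets 5.5% were higher. Of the 7144 brighter genes 903 were higher and 36.7% changed in either direction. The 5 were Gbp6 (1.98 ± 0.36, adjusted p = 0.0113), Iigp1 (1.69 ± 0.37), Irgm2 (1.36 ± 0.26), Igtp (1.16 ± 0.26) and Gbp7 (0.80 ± 0.22). All MEKi/CD40 tumours were of the low number series. Blocks and array subsets were run for the 38 members only. The calls of the GTPases, of the other lists and of the cell type markers were not tested in that way. With MEKi alone and with anti-CD40 alone 0 of 8 passed, with medians of 0.29 and 0.68, against 0.98 with MEKi/CD40. Gbp6 and Irgm2 also rose against MEKi, by 1.23 and 1.02 (adjusted p = 0.0368 and 0.0407). In MEKi tumours Gbp2 (-0.50) and Igtp (-0.55), 2 of the 8 GTPases (25%), were lower than with anti-CD40. So were 4 of 17 genes of interferon-gamma chemokines and antigen presentation (23.5%), among them Cxcl9, a T cell attractant (-2.41 ± 0.38, adjusted p = 0.0219). Over all probe sets 5.09% changed in either direction and 2.26% were lower. Of the 7144 brighter genes 13.4% changed and 424 were lower.
Of 17 genes of interferon-gamma chemokines and antigen presentation, B2m (0.15) and H2-K1 (0.29) rose with MEKi/CD40 against control. Of 39 further interferon-stimulated genes, 4 rose (Parp11, 0.91, Trim12a, 0.80, Shisa5, 0.34, and Ifitm2, 0.20) and Nt5c3 fell by 0.42. Among 12 further genes of nucleic acid sensing, Trim56, a ubiquitin ligase of the STING pathway, rose (0.79) and Mavs, the adaptor of the RNA helicases, fell by 0.51. The shares called in the lists of 17, 39 and 12 genes were 11.8%, 12.8% and 16.7%. Over all probe sets 14.9% changed in either direction, and over the brighter genes 36.7%. The median over the 39 genes was 0.42, above that of the 38 members by an amount that was not tested.

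**Figure D5:**
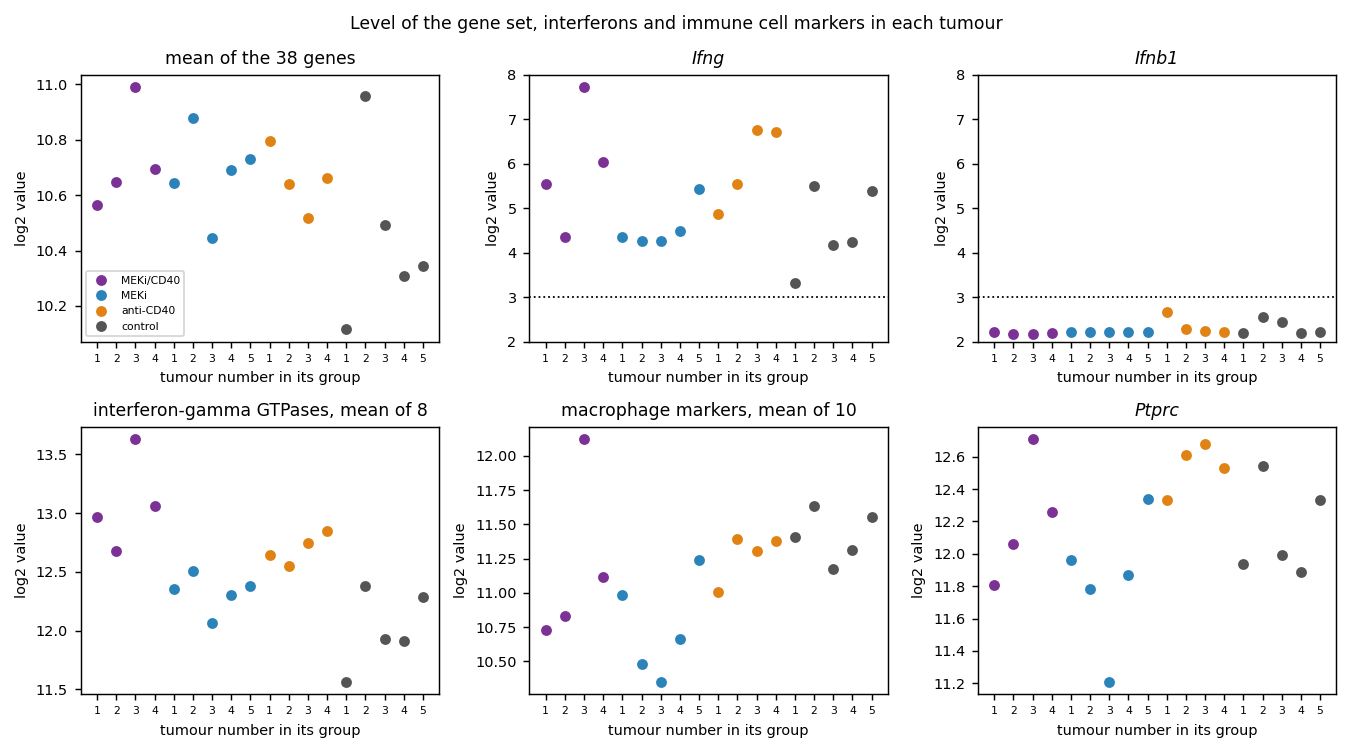
Log2 level in each tumour (horizontal axes, tumour number, coloured by group) of the mean of the 38 members, Ifng, Ifnb1, the mean of 8 interferon-gamma GTPases, the mean of 10 macrophage markers and Ptprc. The dotted line marks 3, below which values were read as background. Ifnb1 lies below it throughout, and MEKi/CD40 3 is highest in Ifng (7.71), the GTPases (13.63) and the macrophage markers (12.12).

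Cell type markers moved with the groups as well. All 6 fibroblast markers rose with MEKi/CD40 against control, with a mean level of 12.60 to 12.86 with MEKi/CD40, against 9.53 to 10.20 in control. With MEKi 3 of 6 rose, Lum by 3.93, Col1a1 by 3.52 and Pdgfra by 0.58, and the mean level was 11.01 to 12.09. With anti-CD40 the mean level was 10.08 to 10.96, with 0 called. Of 5 monocyte markers, Plac8, Chil3 and F13a1 rose with MEKi/CD40 and Ccr2 differed by -1.02 (adjusted p = 0.170). The mean level was 10.49 to 11.34 with MEKi/CD40, 9.26 to 9.73 with anti-CD40 and 8.00 to 8.90 in control. Of 10 macrophage markers Csf1r fell by 0.71 with MEKi/CD40. Mertk (0.95), Cd14 (0.41) and Cd68 (0.30) lay above 0 and 7 markers below, with no other call. The macrophage marker mean was 10.72 to 12.12 with MEKi/CD40, 11.01 to 11.39 with anti-CD40 and 11.17 to 11.64 in control. Of 5 neutrophil markers, S100a8 and S100a9 rose with MEKi/CD40 (5.59 and 4.88) and with MEKi (2.81 and 2.77), while Mmp9 differed by -0.91 with MEKi/CD40 (adjusted p = 0.123) and -0.15 with MEKi. Csf3r differed by 0.14 with MEKi/CD40 and -0.40 with MEKi, and Cxcr2 averaged 2.17 and 2.16, at background. The neutrophil marker mean was 6.76 to 7.76 with MEKi/CD40, 5.52 to 6.73 with MEKi, 5.57 to 6.60 with anti-CD40 and 5.15 to 5.55 in control. With anti-CD40, S100a8 differed by 2.44, S100a9 by 2.02, Chil3 by 3.92 and Plac8 by 1.14, with no call. Of the neutrophil markers 2 lay above 0 and 2 below with anti-CD40, and of the monocyte markers 4 above and 1 below. The monocyte marker Plac8 (1.56) and the adipocyte marker Fabp4 (1.65) rose with MEKi as well. In MEKi tumours the macrophage markers Cd68, Csf1r and Itgam fell, by 0.57, 0.88 and 1.37, with a mean level of 10.35 to 11.24. The 7 T cell markers averaged 5.74 to 7.23 with MEKi/CD40, 5.54 to 6.74 with MEKi, 6.09 to 7.40 with anti-CD40 and 4.97 to 6.48 in control, and none was called. Adipocyte markers averaged 10.52 in MEKi/CD40 2 and 6.11 in MEKi/CD40 4, against 3.08 to 3.46 in control, and skeletal muscle markers 8.52 in MEKi/CD40 4, against 2.51 to 2.96 in control. The part of these cell types in the differences of the 38 members was not tested.

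Returning to the promoters, the members called were too few to compare those with and without an ISRE core. Of the 6 members called in any comparison, Isg20, Lgals3bp, Ifi47, Trim25 and Irf9 had a window and none held an ISRE core, and Zbp1 had no window in the table. Ddx58, which held a core, was called with MEKi against control when control 2 was left out. Isg20 had 3 windows and 1 GAS among them, in the sequence printed above. It lay 73 bases before the annotated start of its window, which is not the outermost start of the gene. With MEKi/CD40 against control the median difference was 0.29 over the 10 measured members with an ISRE core (0 called) and 0.29 over the 18 with a window and no core (3 called). With MEKi the medians were 0.28 and 0.12, and with anti-CD40 0.21 and 0.24. A match is a description of the letters and says nothing of which factor binds there.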

How the data were processed

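The 18 arrays were Affymetrix Mouse430_2 chips hybridised with labelled total RNA of tumour pieces. The deposited values are log2 signals that the authors made from the cell intensity files with the RMA method of the Chipster software, of a version not named here. They ran from 2.16 to 16.34 and 34.5% equalled the minimum, which plain RMA would not give, so how background was treated is uncertain. Gene names came from the platform annotation.

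After 64 control probe sets were set aside, 45037 were tested without a filter on signal (limma 3.58.1 in R 4.3.3). Each pair of groups was fitted on its own arrays, and the interaction as a 2-by-2 model of all 18. P-values were adjusted by Benjamini and Hochberg over all probe sets and called under 0.05. Residual degrees of freedom were 6 to 8 for pairs and 14 for the interaction. The number of arrays limits the precision. The fit was also run on simulated data with independent noise. The planted differences were larger than those of most members, so that run does not cover differences of the size reported here.

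The members and gene lists were chosen with earlier results of these data known. All members were accounted for by role, and values in every array were given for the 4 members with the smallest p in each comparison. Array values of Irf8 and Samhd1 were added after they had been seen. Of other lists up to 4 genes by smallest p were named, or more where all calls of a list are given, beside a few interferon genes given whatever their values, of which 1 is not reported here. Promoter sequences are RefSeq's (GRCm38.p6), matched by symbol for 30 of 40 members. Alternatives were another model, filter, floor, scaling, variance trend, block, probe set rule or array subset. Replicate numbers did not pair the arrays (correlations of deviations -0.41 to 0.31).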

Additional observations from a re-analysis of the deposited data

How the results depend on the processing

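Counts of called members changed with the settings. The differences of the 4 members with the smallest p in each comparison kept their direction under every alternative run. Other members were not followed one by one, and those with differences near 0 may turn when an array is left out. Genes of the other lists and the cell type markers were not run under the alternatives. Against control with MEKi/CD40 the 4 calls became 8 in 1 model of all 18 arrays and 8 without dim probe sets, and 0 in a model blocked on number series, in the low series only, without the 3 arrays highest in adipocyte markers and with a replicate block. Leaving out an array in turn gave 0 to 8. Against control with MEKi the 1 call became 6 in the model of all arrays, 8 without dim probe sets, 3 with cyclic loess, 6 at a common 75th percentile, 2 with an intensity trend and 2 with the mean of all probe sets of a gene. It became 0 with the replicate block, in the low series only and in the high series only, and leaving out arrays gave 1 to 9. For MEKi/CD40 against MEKi the 0 calls became 1 in the model of all arrays, 3 without dim probe sets, 2 at the common percentile and 2 with the mean of probe sets. For MEKi/CD40 against anti-CD40 the 0 calls became 3, 5, 4 and 2 under the same 4 settings, 3 with cyclic loess and 3 with the trend, and 0 to 2 without an array. For MEKi against anti-CD40 the 3 calls became 6 without dim probe sets and 5 at the common percentile, and 0 blocked on number series, in the low series only, with the replicate block and without the adipocyte-rich arrays. Leaving out arrays gave 0 to 4 there and 0 to 1 for the interaction. With anti-CD40 against control all alternatives gave 0. Same-numbered arrays share only a number. The cause of these changes was not tested.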
